A study of Mus musculus with 12 samples.

Results

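The genes described here encode the Kv1 family of voltage-gated potassium channels and its beta subunits. They were taken as every probe, other than control probes, whose gene name on the array was Kcna1, Kcna2, Kcna3, Kcna4, Kcna5, Kcna6, Kcna10, Kcnab1, Kcnab2 or Kcnab3. All 10 genes were found, with 34 probes, out of 19505 genes with 165865 probes. Total RNA came from 3 parts of the cochlea (apex, middle turn, base) of male C57BL/6 mice aged 6 weeks, and each of the 12 arrays, 4 per turn, was labeled from 25 ng. No treatment or altered allele is named for any turn. The dissected tissue held the organ of Corti, the spiral ganglion and the lateral wall together, so each value is a mean over many cell types. In such bulk samples, fewer cells of a type and less RNA per cell cannot be told apart. The study names 4 mice in all and divided the dissected cochlea into the 3 turns, so the 12 arrays do not stand for 12 animals. The labels do not say which arrays share a mouse, and the main fit did not pair them. Each slide carried arrays of 1 turn only, so that turn and slide cannot be told apart.

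A Kv1 channel is built from alpha subunits, which form the pore, and cytoplasmic beta subunits, which bind to them and can speed inactivation or help bring the channel to the membrane. The channels open near the firing threshold of many neurons, where they hold back repetitive firing. In myelinated axons, channels of Kcna1 and Kcna2 with Kcnab2 gather beside the node of Ranvier, in the juxtaparanode, where the adhesion proteins Cntnap2 and Cntn2 hold them. Spiral ganglion neurons, which carry sound information from the hair cells to the brainstem, express Kv1 channels. Kcna10 is known in the inner ear from hair cells.

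Signals are given as scaled fluorescence, on a linear scale, and differences between turns as differences of mean log2 signals. To be counted, a gene needed an adjusted p under 0.05 in the moderated F test of limma, run across turns, and means that differed 2-fold or more between the pair compared. A second, looser rule asked only for an adjusted p under 0.05 in limma's test of that pair. All adjusted p values below are limma's, with Benjamini-Hochberg adjustment over all genes or all probes tested. Between 77.4% and 81.4% of spots on an array were well above background, no probe spot was saturated, and the median SD of a gene within a turn was between 0.106 and 0.126 log2 units. Of the 10 genes, Kcna6 was not well above background on any of the 12 arrays and Kcna3 was on 6 of them. The other 8 were detected on every array by at least 1 probe.

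Base replicate 3 stood apart from the other base arrays. The summed signal of 12 spiral ganglion neuron markers was 28803 on base replicate 3, against 13823, 7210 and 10625 on base replicates 1, 2 and 4. It ran from 32283 to 42087 at the apex and from 30070 to 52757 in the middle turn, with the highest value on middle replicate 1. Nefl gave the largest signal in this sum. The mean log2 signal of the 12 markers was 10.2 on base replicate 3, against 9.28, 8.54 and 8.99 on base replicates 1, 2 and 4. Each of the 12 neuron markers was detected, by at least 1 probe well above background, on every array. The differences of Kcna1, Kcna2, Kcna10 and Kcnab3 from the base, and the counts of partner genes, are therefore also given without base replicate 3.

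Between apex and base, 3 of the 10 genes were counted as higher at the apex, namely Kcna2, Kcna10 and Kcnab2, and 0 as higher at the base. Over all genes, 3.27% were counted as higher at the apex and 1.12% as higher at the base. By the looser rule, 5 of the 10 were higher in the apex, with Kcna1 and Kcnab3 added, against 17.6% of all genes, and 0 were higher at the base, against 21.6%. Between the middle turn and the base, 5 were counted as higher in the middle turn, namely Kcna1, Kcna2, Kcna10, Kcnab2 and Kcnab3, against 2.2% of all genes, and 0 as higher at the base, against 0.456%. The looser rule gave 6 as higher in the middle turn, with Kcnab1 added, against 11.6% of all genes, and 0 as higher at the base, against 9.23%. Between apex and middle turn, none of the 10 was counted in either direction by the F test and 2-fold rule, against 0.297% and 0.138% of all genes. The looser rule gave Kcna10 as higher at the apex, against 4.42% of all genes, and Kcnab1 as higher in the middle turn, against 7.61%. The median difference of the 10 genes was 0.60 for apex minus base and 0.86 for middle minus base, beside -0.04 and 0.04 over all genes. The count between apex and base was 5 without base replicate 3 and 2 without base replicate 4. The looser count was 3 without apex replicate 1 or base replicate 4. Between middle turn and base the count was 3 without middle replicate 1 or base replicate 2 or 4, and the looser count was 2 without middle replicate 1.

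**Figure D1:**
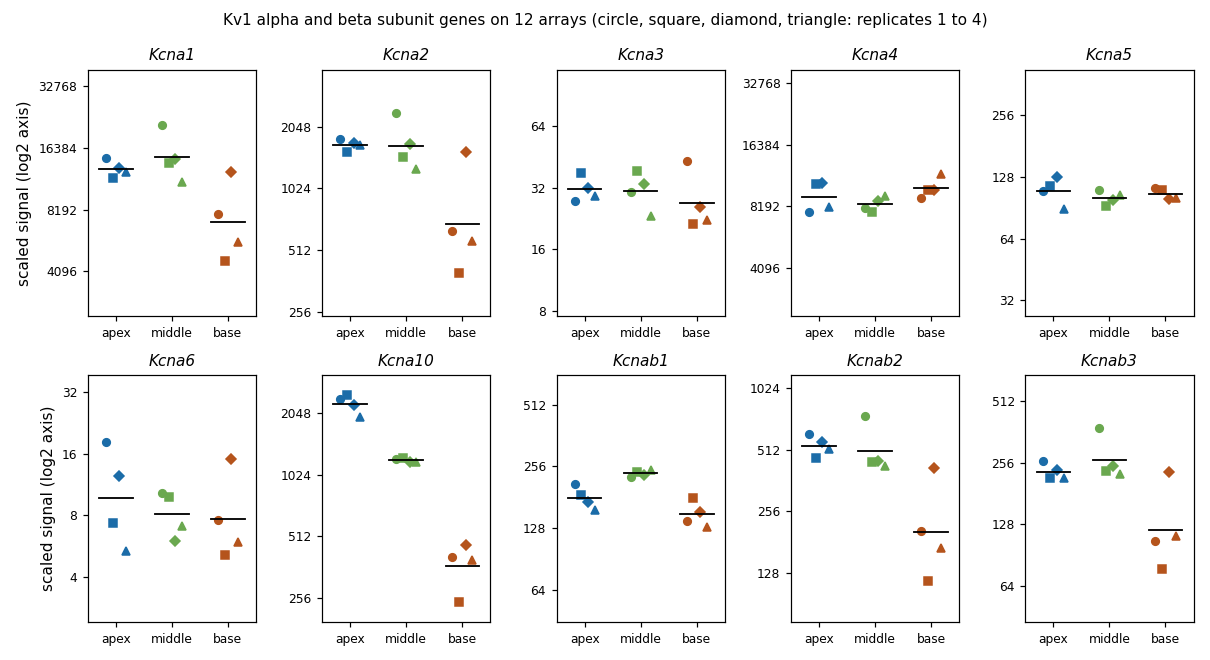
Scaled signal (log2 axis) of the 10 Kv1 alpha and beta subunit genes on each of 12 arrays, by cochlear turn. Points are arrays, with circle, square, diamond and triangle for replicates 1 to 4, and lines are means of the log2 signals. Kcna10 falls from apex to middle turn to base with no overlap, while the diamond of base replicate 3 lies above the other base arrays for Kcna1, Kcna2, Kcnab2 and Kcnab3.

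Kcna10 encodes the alpha subunit Kv1.8 and had the largest difference of the 10 genes. Its signal was 2394, 2497, 2241 and 1950 on apex replicates 1 to 4. It was 1224, 1233, 1179 and 1174 in the middle turn. It was 406, 244, 463 and 392 in the base. The turns did not overlap, and the order was apex, middle turn, base. Groups of 4 arrays without overlap were common on this array: 16.9% of all genes had every apex array above every base array, and 7.3% had every apex array above every middle array.

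The Kcna10 signal was 6.17-fold higher at the apex than at the base, a log2 difference of 2.63 ± 0.16 (SE, adjusted p = 1.13e-06). It was 3.28-fold higher in the middle turn than at the base (1.71 ± 0.16, adjusted p = 8.41e-05). It was 1.88-fold higher at the apex than in the middle turn (0.91 ± 0.16, adjusted p = 0.00712), which passed the looser rule and was under 2-fold. The differences from the base were 2.74 for the apex and 1.83 for the middle turn with base replicate 3 left out. With any 1 array left out the first lay between 2.43 and 2.74, and all 3 comparisons kept an adjusted p under 0.05. The step from base to middle turn was 0.80 log2 units larger than the step from middle turn to apex, a difference that did not pass (adjusted p = 0.162).

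Hair cell markers moved in the same direction as Kcna10. All 12 of them, among them Otof and the outer hair cell motor gene Slc26a5, were higher at the apex than at the base by the looser rule. Of the 12, 10 were counted, and 5 were higher at the apex than in the middle turn by the looser rule. The shares over all genes were 17.6%, 3.27% and 4.42%. The summed signal of the 12 markers was between 14740 and 19260 at the apex, between 11287 and 13027 in the middle turn and between 3274 and 5824 in the base. Most of this sum was Ocm, at 11994 to 15979 at the apex and 2486 to 4761 in the base. Each of the 12 markers was detected above background by a probe on every array. Set against the mean log2 signal of these markers on each array, Kcna10 was higher at the apex than at the base by 0.99 log2 units (adjusted p = 5.46e-07). The median of all genes was -1.67 on this scale. The markers differed among themselves: apex minus base ran from 0.50 for Espn to 2.94 for Slc26a5, the only marker above Kcna10. The genes whose profile over the 12 arrays lay nearest to Kcna10 were Robo2, which encodes an axon guidance receptor, Slc26a5 and Tubb2b, which encodes a tubulin. Their root mean square distances were 0.208, 0.231 and 0.253 log2 units among 16001 genes.

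Kcna10 was read by 1 probe of 60 bases, at chr3:106998421-106998480 of the mouse build mm9 (NCBI37), on the plus strand. Its neighbours on this chromosome are Kcna2 and Kcna3. The Kcna3 and Kcna2 probes start 68.8 kb apart, and those of Kcna2 and Kcna10 88.7 kb apart. Of these 3 genes Kcna2 and Kcna10 were counted between apex and base, and the last 30 bases of their probes are shown to identify the transcripts measured. They and all later sequences come from the array files and were chosen after the values had been seen.
Kcna10: tactgagtctctcaacaagaccaatggcag
Kcna2: tagtcgtgggcatgactacacagcttacca

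Kcna2 encodes the alpha subunit Kv1.2. Its signal was 1782, 1541, 1714 and 1666 on apex replicates 1 to 4. It was 2394, 1453, 1690 and 1279 in the middle turn. It was 636, 396, 1544 and 566 in the base, where replicate 3 lay within the range of the other turns and the other 3 arrays lay below it. Kcna2 was 2.44-fold higher at the apex than at the base (log2 difference 1.29 ± 0.34, SE, adjusted p = 0.0111) and 2.42-fold higher in the middle turn than at the base (1.27 ± 0.34, adjusted p = 0.0225). Apex and middle turn differed by 0.02 log2 units, with a 95% confidence interval from -0.74 to 0.77, which spans less than 2-fold in either direction. Without base replicate 3, apex and base differed by 1.68 log2 units (adjusted p = 0.000182) and no longer overlapped, and middle turn and base differed by 1.66 (adjusted p = 0.000464). The comparison of middle turn and base lost its call by the looser rule without middle replicate 1 and without base replicate 1, 2 or 4, at adjusted p values from 0.0522 to 0.0699.

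Kcna1 encodes the alpha subunit Kv1.1. Its signal was 14636, 11630, 13100 and 12443 on apex replicates 1 to 4. It was 21246, 13835, 14531 and 11152 in the middle turn. It was 7815, 4601, 12437 and 5706 in the base, with replicate 3 again among the values of the other turns. Kcna1 was 2.08-fold higher in the middle turn than at the base (1.06 ± 0.28, SE, adjusted p = 0.0204). It was 1.82-fold higher at the apex than at the base (0.86 ± 0.28, adjusted p = 0.0287), which was under 2-fold and not counted. Without base replicate 3 that difference was 1.13 (adjusted p = 0.00226) and was counted, and middle minus base was 1.32 (adjusted p = 0.00189). The looser call for apex and base was lost without apex replicate 1, apex replicate 3, base replicate 2 or base replicate 4, at adjusted p values from 0.0592 to 0.0812. That between middle turn and base was lost without middle replicate 1, base replicate 2 or base replicate 4, at adjusted p values from 0.0572 to 0.062. The middle minus apex difference of 0.19 did not pass (adjusted p = 0.668).

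Kcna1 lies on chromosome 6 between Kcna5 and Kcna6, whose probes start 103 and 100.4 kb away from its own. Its probe is at chr6:126586524-126586583, on the minus strand, and its last 30 bases are given for the gene of this group that passed a test.
Kcna1: tggttctgtcacttcatgatctgttcatat

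Of the other alpha subunits, none passed either rule in any comparison. Kcna3, which encodes Kv1.3, known from T cells and microglia, had signals between 27.7 and 38.0 at the apex. They were between 23.2 and 38.4 in the middle turn and between 21.2 and 43.2 in the base. It was well above background on 3, 2 and 1 of the 4 arrays of the apex, middle turn and base, so its values lie close to the limit of detection. Kcna5, which encodes Kv1.5, a channel of heart and smooth muscle, had signals between 89.3 and 128 at the apex. They were between 92.3 and 110.4 in the middle turn and between 100.02 and 113 in the base. Its apex minus base difference was 0.05 log2 units, with a 95% confidence interval from -0.18 to 0.28. Kcna6, which encodes Kv1.6, gave signals between 5.09 and 18.2 over all arrays, none well above background, so no fold is given.

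Kcna4 encodes Kv1.4, an alpha subunit whose channels inactivate fast. Its signal was between 7709 and 10627 at the apex, between 7701 and 9158 in the middle turn and between 9048 and 11826 in the base, with all turns overlapping. Apex minus base was -0.14 log2 units, with a 95% confidence interval from -0.41 to 0.13. Its probe, at chr2:107138207-107138266 on the plus strand, contains the 10 letters TGTGTGTGTG, which occur in 114 of 165984 probes on the array (0.0687%), searched on the printed strand, and in no other probe of the 10 genes. The last 30 bases are shown with the first such run in capitals.
Kcna4: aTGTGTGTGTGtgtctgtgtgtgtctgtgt

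The genes nearest to Kcna4 in profile, looked up after its values had been seen, each had 1 probe, and all 3 of these probes contain the same letters. They were a probe without a gene name, Ifitm7 and Blcap, at distances of 0.038, 0.053 and 0.076 log2 units. Of the 16001 genes compared, 112 (0.7%) had such a probe. Ranks 4 to 20 held none. The Kcna4 values are therefore those of a probe with a repeat, and the part of the repeat in them was not tested.

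**Figure D2:**
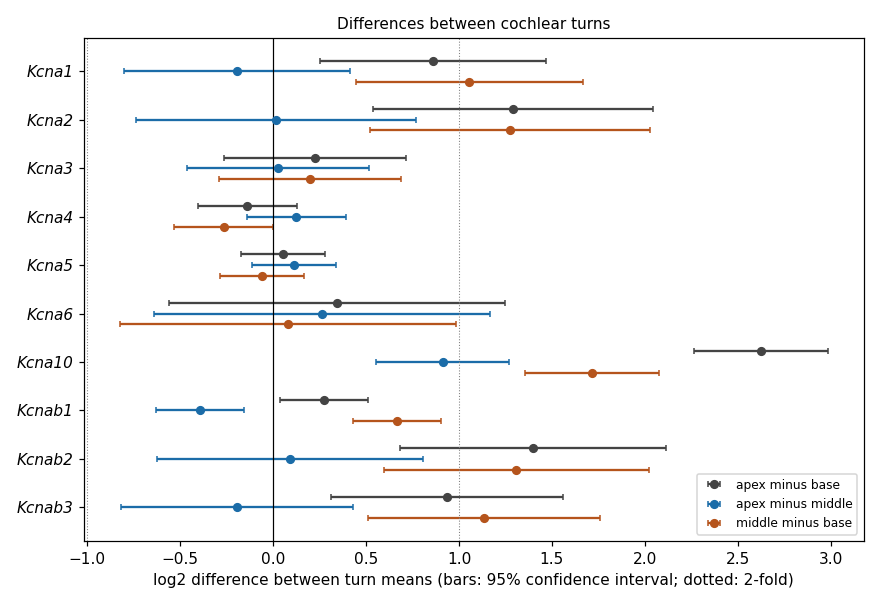
Differences between turn means (log2) for the 10 genes, with 95% confidence intervals that are not adjusted for the number of genes; dotted lines mark 2-fold. Kcna10 is the gene with all 3 intervals above 0, and Kcnab1 the gene whose apex minus middle interval lies below 0.

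Kcnab2 encodes Kvbeta2, the beta subunit that assembles with Kv1 channels of axons. The mean of its 9 probes was 608, 466, 557 and 515 on apex replicates 1 to 4. It was 745, 445.0, 450 and 426 in the middle turn. It was 205, 117, 418 and 169 in the base. Every apex array lay above every base array, as in 16.9% of all genes, although base replicate 3 came within a few units of the lowest middle array. Kcnab2 was 2.63-fold higher at the apex than at the base (log2 difference 1.40 ± 0.33, SE, adjusted p = 0.00541) and 2.48-fold higher in the middle turn than at the base (1.31 ± 0.33, adjusted p = 0.0161). Without base replicate 3 these were 1.75 and 1.66. The looser call between middle turn and base was lost without middle replicate 1 (1.12, adjusted p = 0.0508). Apex and middle turn differed by 0.09, with a 95% confidence interval from -0.63 to 0.80.

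Kcnab3 encodes Kvbeta3. The mean of its 9 probes was 263, 215, 236 and 216 on apex replicates 1 to 4. It was 378, 234, 247 and 225 in the middle turn. It was 106, 77.5, 232 and 112 in the base, with replicate 3 again within the range of the other turns. Kcnab3 was 2.19-fold higher in the middle turn than at the base (1.13 ± 0.28, SE, adjusted p = 0.0169) and 1.92-fold higher at the apex than at the base (0.94 ± 0.28, adjusted p = 0.0215). The latter was 1.25 and counted without base replicate 3 (adjusted p = 0.000494), where the former was 1.45 (adjusted p = 0.000519). Its looser call was lost without apex replicate 1 or base replicate 1, 2 or 4, at adjusted p values from 0.0531 to 0.0614. The call between middle turn and base was lost without middle replicate 1 (0.96, adjusted p = 0.0524).

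Kcnab1 encodes Kvbeta1, a beta subunit that can close the channel by N-type inactivation. The mean of its 9 probes was 210, 186, 172 and 157 on apex replicates 1 to 4. It was 228, 240.0, 234 and 245 in the middle turn. It was 138, 180.1, 153 and 129 in the base. Every middle array lay above every apex and every base array, while apex and base overlapped. Over all genes, 13.5% had every middle array above every apex array and 12.5% had every middle array above every base array.

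Kcnab1 was 1.59-fold higher in the middle turn than at the base (0.67 ± 0.11, SE, adjusted p = 0.00216) and 1.31-fold higher than in the apex (apex minus middle -0.39 ± 0.11, adjusted p = 0.0392). The difference between apex and base, 0.27, did not pass (adjusted p = 0.0679). It passed without apex replicate 4 (0.34, adjusted p = 0.0324), without base replicate 2 (0.36, adjusted p = 0.0153) and with only probes well above background (adjusted p = 0.0493). Middle turn and base differed by 0.68 without base replicate 3. The difference from the apex lost its call without apex replicate 2, 3 or 4 or without middle replicate 1, 2 or 4, at adjusted p values from 0.0595 to 0.0986, and stayed between -0.47 and -0.33 in every such fit. Kcnab1 was the gene of the 10 whose steps differed by the test: the step from base to middle turn exceeded that from middle turn to apex by 1.06 log2 units (adjusted p = 0.0192), as it did past the threshold in 1.15% of all genes. With base replicate 3 left out, 5 of the 10 genes passed this test, and none did without middle replicate 1, 2 or 4.

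The aldo-keto reductase core of the beta subunits is alike in all 3 genes, and the array has a probe at the same stretch of each. These 60 bases are shown because closely related genes can share signal. They come from chr3:65161005-65161064 (plus strand) for Kcnab1, chr4:151769234-151769293 (minus strand) for Kcnab2 and chr11:69144614-69144673 (plus strand) for Kcnab3, with capitals at the 14 positions where the genes are not all alike.
Kcnab1: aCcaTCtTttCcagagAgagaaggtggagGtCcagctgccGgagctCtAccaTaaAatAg
Kcnab2: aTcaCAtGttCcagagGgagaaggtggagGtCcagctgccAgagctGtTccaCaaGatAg
Kcnab3: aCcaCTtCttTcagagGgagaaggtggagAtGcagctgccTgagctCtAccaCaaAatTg

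Kcnab1 matched each of the others at 50 of 60 bases, and Kcnab2 and Kcnab3 matched at 49. The 3 probes differed in apex minus base: 0.29 for Kcnab1, 0.92 for Kcnab2 and 1.07 for Kcnab3. For Kcnab1 the value was close to the 0.27 of the whole gene. For Kcnab2 it was below the 1.40 of the gene, but the F test across turns against the other Kcnab2 probes did not pass (adjusted p = 0.0931). Whether the probes bound RNA of a related gene was not tested.

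Probe by probe, 15 of the 34 probes were counted as higher at the apex than at the base, against 4.39% of all probes. They were 8 of 9 for Kcnab2, 5 of 9 for Kcnab3 and the single probes of Kcna2 and Kcna10. Between middle turn and base, 19 were counted, against 2.83% of all probes, among them 7 of Kcnab2, 8 of Kcnab3 and 1 of Kcnab1. Without base replicate 1, 2 or 4 these counts were 8, 7 and 5 for the apex and 9, 9 and 5 for the middle turn. None was counted as higher at the base in either comparison, where 1.17% and 0.546% of all probes were, and none between apex and middle turn, where 0.576% of all probes were counted as higher at the apex and 0.188% as higher in the middle turn. For Kcnab1, 8 of 9 probes had a higher mean in the middle turn than at the apex. The exception was the first, at chr3:64913855-64913914, which the array ties to fewer transcripts than the next probes and which was well above background on 6 arrays, including all 4 of the apex. For Kcnab3, all 9 probes had a higher mean in the middle turn than at the apex, by 0.09 to 0.27 log2 units, but the difference of the gene did not pass (apex minus middle -0.20, adjusted p = 0.676). Without middle replicate 1, 6 of the 9 probes had a higher mean in the middle turn and the gene differed by -0.02.

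**Figure D3:**
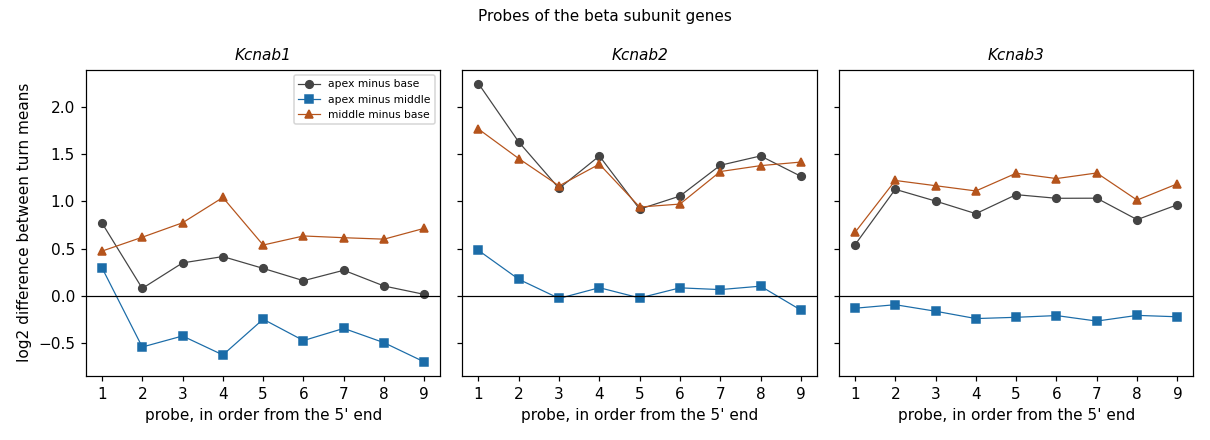
Log2 differences between turns for each of the 9 probes of Kcnab1, Kcnab2 and Kcnab3, in order from the 5′ end of the transcript. The first Kcnab2 probe has the largest apex minus base difference, 2.24, and the first Kcnab1 probe is the one of that gene with a positive apex minus middle value, 0.30.

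The first Kcnab2 probe reached across the start codon and differed from the rest of its gene. Its signal was 853, 664, 784 and 746 on apex replicates 1 to 4. It was 696, 474, 546 and 485 in the middle turn and 159, 73.2, 427 and 133 in the base. Its apex minus base difference was 2.24 log2 units, and exceeded the mean of the other 8 Kcnab2 probes by 0.95 ± 0.14 (SE). The F test across turns of this probe against the others gave an adjusted p of 0.0116. The difference of 0.95 was just under 2-fold and was not counted, but the probe passed the F test in every alternative run. Without base replicate 3 the difference was 1.09 and counted. Of all probes compared with their gene, 6.29% passed the F test and 0.948% also reached 2-fold. The comparison needed 3 or more probes per gene, so of this family only the probes of Kcnab1, Kcnab2 and Kcnab3 entered it. Another 2 of these probes passed the F test. The apex minus base difference of a Kcnab2 probe was 0.39 log2 units less than that of the other probes of its gene (F test adjusted p = 0.0339). For the last Kcnab1 probe it was 0.29 less, and the value in apex minus middle was -0.34 (F test adjusted p = 0.0429). The number of probes past the F test fell from 3 to 1 when apex replicate 1, 2 or 3, middle replicate 1 or 4 or base replicate 1, 2 or 4 was left out, and was 10 with normexp. The second 30 bases of the first Kcnab2 probe, at chr4:151809971-151810000 on the minus strand, are given with the start codon in capitals.
Kcnab2: ggccggccccATGtatccggaatcaaccac

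Kcna1, Kcna2, Kcnab2 and Kcnab3 had profiles over the 12 arrays that lay close to each other, at root mean square distances between 0.104 (Kcna2 and Kcnab2) and 0.248 (Kcna1 and Kcnab2). Kcna10 lay between 0.605 and 0.779 from each of them, and Kcnab1 between 0.484 and 0.667. These distances describe 12 arrays that share slides and tissue. Among the genes nearest to Kcnab2 were Slc17a7, the vesicular glutamate transporter of spiral ganglion neurons, and Stmn2, a regulator of neuronal microtubules, at 0.048 and 0.055. Among those nearest to Kcna2 were Cpne9 and Elavl4, a neuronal RNA-binding protein gene, at 0.089 and 0.094.

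**Figure D4:**
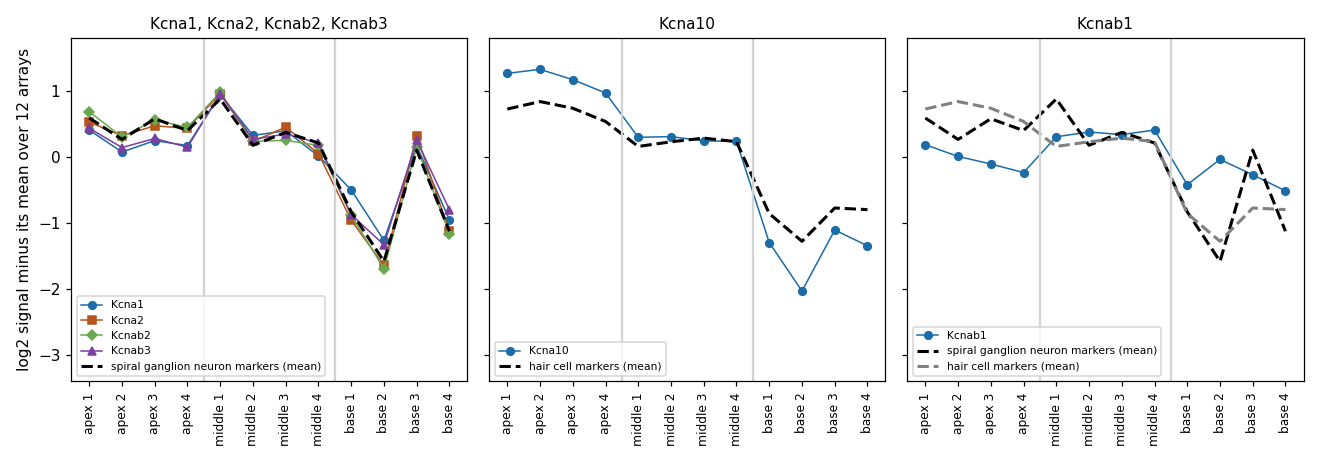
Log2 signal on each array minus its mean over the 12 arrays. Kcna1, Kcna2, Kcnab2 and Kcnab3 are drawn with the mean of 12 spiral ganglion neuron markers, Kcna10 with the mean of 12 hair cell markers, and Kcnab1 with both. The first group peaks on middle replicate 1 and is high on base replicate 3, as the neuron markers are, while Kcna10 is highest on the apex arrays and Kcnab1 on the middle arrays.

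Neuron markers moved with the first group. Of 12 markers, 9 were counted as higher at the apex than at the base, against 3.27% of all genes. Between middle turn and base 9 were counted as higher in the middle turn, against 2.2%. The median apex minus base difference of the markers was 1.39 log2 units. One, Prph, went the other way between apex and base (-0.34, adjusted p = 0.0335). Relative to the mean log2 signal of the markers on each array, the apex minus base difference was -0.45 for Kcna1, -0.03 for Kcna2, 0.08 for Kcnab2 and -0.38 for Kcnab3. None of these passed (adjusted p from 0.169 to 0.937), where the median of all genes was -1.35 on this scale. On the same scale Kcna10 was 1.31 (adjusted p = 0.000741) and Kcnab1 was -1.04 (adjusted p = 0.00677). Myelin markers moved too: of the 9 measured, 8 were higher at the apex than at the base by the looser rule, 1 was counted, and their summed signal was between 15874 and 17741 in the apex and between 8465 and 15076 in the base. Supporting cell and lateral wall markers moved the other way: by the looser rule 8 of 10 were higher at the base than at the apex and 1 was lower, and their summed signal was between 448370 and 487780 at the apex, between 588160 and 663020 in the middle turn and between 798880 and 914430 at the base. The largest signals in this sum were those of Otos, Coch, Gjb2 and Gjb6. By the looser rule, 17.6% of all genes were higher at the apex and 21.6% at the base. The part of these tissues in the results was not tested.

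The changes of single genes within this family were set against each other in 18 exact permutation tests (two-sided) of the difference between their log2 signals, for pairs chosen after the values had been seen. With 4 arrays against 4 the smallest p is 0.0286, and the smallest adjusted p reached was 0.0735, so none passed. Kcna10 exceeded Kcna1 by 1.77 log2 units in apex minus base and by 1.11 in apex minus middle, each at an exact permutation p of 0.0286 (adjusted 0.0735). Much smaller differences reached the same p. They included -0.21 for Kcna1 against Kcna2 and 0.28 for Kcnab2 against Kcnab3, both in apex minus middle. Kcnab1 lay 1.13 log2 units below Kcnab2 in apex minus base (exact permutation p = 0.0571, adjusted 0.103).

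The proteins that hold Kv1 channels in place were read from a list of 15 further genes. Of these, 7 were counted as higher at the apex than at the base and 6 as higher in the middle turn than at the base, against 3.27% and 2.2% of all genes, 0 were lower, and 0 were counted between apex and middle turn. The 15 included 8 past the looser rule between apex and base, against 17.6% of all genes, and their median difference was 0.64 log2 units. Without base replicate 3 the counts were 7 and 7. The count for the apex was 4 without base replicate 2, and that for the middle turn was 2 without base replicate 2 and 3 without middle replicate 1 or base replicate 4. The list was drawn up with earlier results of these arrays known.

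Among the adhesion proteins of the juxtaparanode, Cntnap2 had signals of 127, 102, 136 and 91.5 in the apex and 57.8, 37.1, 85.6 and 43.0 in the base. All apex arrays lay above all base arrays, as they did for 16.9% of all genes. Cntnap2 was 2.13-fold higher in the apex (1.09 ± 0.25, SE, adjusted p = 0.00548). Cntn2 was higher at the apex by 0.64 ± 0.16 (adjusted p = 0.00904), less than 2-fold. Epb41l3, a scaffold that links axonal adhesion proteins to the cytoskeleton, had the largest difference of the list, 1.66 ± 0.28 (adjusted p = 0.000887).

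The Lgi proteins are secreted ligands and Adam22 and Adam23 their receptors. Adam22 was higher at the apex than at the base by 1.37 ± 0.26 (adjusted p = 0.00182) and Adam23 by 1.50 ± 0.36 (adjusted p = 0.00614). Lgi2 was higher by 1.64 ± 0.26 (adjusted p = 0.000564) and Lgi3 by 1.08 ± 0.30 (adjusted p = 0.0137). Lgi1 differed by 0.42 ± 0.18 and did not pass (adjusted p = 0.0902), although it did without base replicate 3 (0.57, adjusted p = 0.017). Lgi4 differed by -0.04 ± 0.09 (adjusted p = 0.788). The members of the ligand family thus gave different calls, but differences between them were not tested.

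Of the synaptic scaffolds that bind the end of Kv1 alpha subunits, Dlg2 (PSD-93) was higher at the apex by 1.08 ± 0.25 (adjusted p = 0.00489). Dlg4 (PSD-95) had signals between 483 and 525 in the apex and between 417 and 478 in the base, a difference of 0.17 ± 0.07 (adjusted p = 0.0705), which passed without base replicate 3 (0.21, adjusted p = 0.0388). Dlg1 and Dlg3 differed by 0.09 ± 0.06 (adjusted p = 0.305) and 0.07 ± 0.07 (adjusted p = 0.487). Of 8 genes of the neighbouring node and paranode, 0 were counted, against 3.27% of all genes, 2 were without base replicate 3 or apex replicate 2, and 1 was without apex replicate 4 or base replicate 1. By the looser rule, 6 were higher at the apex than at the base, against 17.6% of all genes, with a median difference of 0.52 for all 8. The paranodal Cntnap1 came closest to 2-fold, at 0.99 ± 0.23 (adjusted p = 0.00504).

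**Figure D5:**
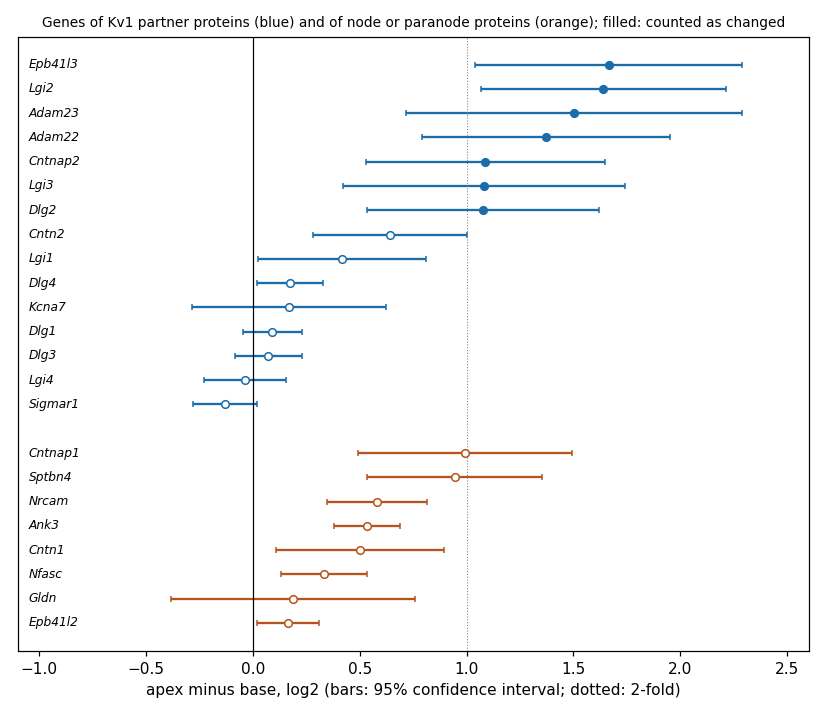
Apex minus base difference (log2) of 15 genes of Kv1 partner proteins (blue) and 8 genes of the node and paranode (orange), with 95% confidence intervals not adjusted for the number of genes. Filled points are the 7 genes counted as changed, all partners, with Epb41l3 and Lgi2 at the top.

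The scale of the arrays set how many of these genes were counted. With each array scaled to the spike-in probes in place of its 75th percentile, the median of all genes moved to -0.52 for apex minus base, and 211 of all genes were counted as higher at the apex and 1224 as higher at the base, in place of 638 and 218. Scaling to the median gave 519 and 324. On the spike-in scale 1 of the 10 genes, Kcna10, was still counted between apex and base. There Kcna10 was 2.14, Kcnab2 0.91, Kcna2 0.80, Kcnab3 0.45 and Kcna1 0.37 log2 units higher in the apex. The first 3 kept an adjusted p under 0.05 and the others did not (0.128 and 0.206). Kcna4 and Kcna5 passed in the other direction there, at -0.63 and -0.44. The same 5 genes were 0.78 to 1.44 higher in the middle turn than at the base on this scale, each with an adjusted p under 0.05.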

How the data were processed

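RNA of the apex, middle turn and base was measured on Agilent SurePrint G3 mouse exon arrays, 1 color, 12 arrays. The authors extracted spot intensities with Feature Extraction 10.7.3.1, and the deposited processed intensity has the background subtracted. The deposited series value table holds the same intensities (0 values differed). Probe positions are mm9. Control spots were left out, as were 119 probes flagged on any array. Arrays were scaled to a common 75th percentile (534.0 to 721.6 before scaling), as the study's methods state, spots of a probe and probes of a gene name were averaged as log2 values, and turns were compared with limma 3.58.1 in R 4.3.3. The study's one-way test is among the alternatives, in its unmoderated form. The precision of an array is limited by the number of arrays, 4 per turn.

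The 10 genes, the gene lists and the tests were chosen with earlier results of these data known. The genes named are all members, the partner genes counted (at most 8) with Cntnap2, Cntn2, Lgi1, Adam22 and Dlg4, and the 3 nearest genes of each member counted between apex and base, apart from an item that is not reported here. Lgi4, Dlg1 and Dlg3 were added after their values were seen. Sequences are from the array files. The rule for choosing them needed reference proteins, which were not used here. All accessions of the 10 genes were found in the RefSeq gene table. In simulated data, 87 of 100 genes changed by 1.25 log2 units between apex and base and 94 of 100 changed by 2 were recovered, with 1 other gene called. The changed genes were picked at random and noise was drawn for each gene by itself, without a shift shared by genes on an array. These rates therefore do not describe genes as variable in the base as Kcna2 and Kcnab2 (SD 0.83 and 0.77 log2 units).

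Marker lists of immune cells, supporting cells and lateral wall, and muscle and blood vessels were also summarized. Between apex and base, 0 of 10 immune genes were counted, and 4 were higher at the base and 1 at the apex by the looser rule. Of 10 supporting cell and lateral wall genes, 1 was counted in each direction, and 8 were higher at the base and 1 at the apex by the looser rule. Of 8 muscle and vessel genes, 2 were counted as higher at the base. By the looser rule 4 were higher there and 2 at the apex. Over all genes, 1.12% were counted as higher at the base and 3.27% at the apex. By the looser rule these shares were 21.6% and 17.6%.

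Alternatives were quantile, median and spike-in scaling, values relative to the neuron or hair cell markers, normexp, only bright probes, flagged probes kept, 16 added, median or linear averaging of probes, limma's trend and robust options, the value table, each array left out and the replicate number as a block. Leaving out middle replicate 1 and base replicate 3 together was added after seeing the data.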

Additional observations from a re-analysis of the deposited data

Results flagged for a closer look

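On middle replicate 1 the mean log2 signal of Kcnab2 was 9.54, against 8.81 on the nearest other middle array, so far from the rest that it passed Dixon's test for 4 values. On base replicate 2 the mean log2 signal of the hair cell markers was 6.19, against 6.61 on the nearest other base array, and passed the same test. In all, 54 sets of 4 arrays were tested for the 10 genes and 8 gene lists, and chance alone flags about 1 in 20. The Kcnab2 difference between middle turn and base was 1.31 log2 units with middle replicate 1 and 1.12 without it.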

How the results depend on the processing

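The 3 differences of Kcna10 kept their direction under all alternatives run. The number of an array was not established as marking a mouse. Deviations of same-numbered arrays from different turns had a mean correlation of 0.0949 over 12 pairs, 6 of them over 0.1. For arrays with different numbers it was -0.0313 over 36 pairs, 2 of them over 0.1. In both other turns, 4 of 12 arrays correlated best with their own number. With a replicate block, 3 members were counted as higher at the apex than at the base, 5 by the looser rule and 5 between middle turn and base, and no call of a member changed. Slide as a block could not be fitted, because turn and slide coincide. Dim genes (Kcna3, Kcna6) rest on the background subtraction. The cause of the lost calls below was not tested, unless arrays were left out.

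Counts follow for members higher at the apex than at the base, which were 3 in the report. They were 1 with spike-in scaling, 1 relative to neuron markers, 0 relative to hair cell markers and 5 without middle replicate 1 and base replicate 3. Partner genes counted there, here with the node and paranode genes and 7 in the report, were 4 with median scaling, 3 with spike-in scaling, 0 and 0 relative to either marker list, 3 with normexp and 4 with linear averaging. Member probes, 15 in the report, were 3 with spike-in scaling, 1 and 0 relative to neuron and hair cell markers and 7 with normexp. The looser rule, 5 members in the report, gave 3 with spike-in scaling and 1 relative to either list.

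In the other direction, 0 in the report, members counted as higher at the base than at the apex were 4 relative to neuron markers and 5 relative to hair cell markers. By the looser rule they were 2 with spike-in scaling, 5 and 7. Partner genes were 8 and 13, and member probes 9 and 13, relative to neuron and hair cell markers.

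For middle turn above base, 5 members in the report, there were 3 with spike-in scaling and 0 relative to either list. The looser rule, 6 in the report, gave 0 relative to neuron markers and 1 relative to hair cell markers. Partner genes, 6 in the report, were 3 with spike-in scaling, 0 and 0 relative to either list, 3 with normexp and 3 with linear averaging. Member probes, 19 in the report, were 10 with spike-in scaling, 0 and 0, and 8 with normexp.

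For base above middle turn, 0 in the report, members were 4 relative to neuron and 3 relative to hair cell markers. By the looser rule they were 2 with spike-in scaling, 4 and 5. Partner genes were 9 and 5, and member probes 4 and 3.

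Between apex and middle turn, members higher at the apex by the looser rule, 1 in the report, were 0 relative to neuron markers. Members higher in the middle turn, 1 in the report, were 0 relative to neuron markers, 6 relative to hair cell markers and 0 without middle replicate 1 and base replicate 3. Member probes higher in the middle turn were 3 relative to hair cell markers. Members with a larger step from base to middle turn, 1 in the report, were 0 with spike-in scaling, 0 and 0 relative to either list and 2 without both arrays, and 2 had a larger step from middle turn to apex relative to hair cell markers.

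With each array left out in turn, members counted between apex and base ranged from 2 to 5 and between middle turn and base from 3 to 5. By the looser rule these were 3 to 6 and 2 to 6, and for middle turn above apex 0 to 1. Partner genes ranged from 4 to 9 and from 2 to 8, and member probes from 5 to 20 and from 5 to 21. Larger steps from base to middle turn ranged from 0 to 5, probes apart from their gene past both criteria from 0 to 1, and those past the F test from 1 to 3. Both middle replicate 1 and base replicate 3 left out gave 1 probe past both criteria. The count of 2 looser calls between middle turn and base came without middle replicate 1, and the lowest probe counts without base replicate 4.

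The values that turned in sign and passed a test, in the report or in the alternative, all did so on a changed scale. Another 38 sign changes, some of them with 1 array left out or with median or quantile scaling, were of values that passed in neither. With spike-in scaling, apex minus base of Kcna5 was -0.44. Relative to neuron markers, apex minus base was -0.45 for Kcna1, -0.027 for Kcna2, -1.09 for Kcna3, -1.26 for Kcna5, -0.97 for Kcna6, -1.04 for Kcnab1 and -0.38 for Kcnab3. Middle minus base was -0.21 for Kcna1, -1.07 for Kcna3, -1.19 for Kcna6, -0.60 for Kcnab1 and -0.13 for Kcnab3. Relative to hair cell markers, apex minus base was -0.77 for Kcna1, -0.35 for Kcna2, -1.41 for Kcna3, -1.58 for Kcna5, -1.29 for Kcna6, -1.36 for Kcnab1, -0.24 for Kcnab2 and -0.70 for Kcnab3. Apex minus middle was -0.46 for Kcna3, -0.36 for Kcna4 and -0.37 for Kcna5, and middle minus base was -0.10 for Kcna1, -0.95 for Kcna3, -1.07 for Kcna6, -0.48 for Kcnab1 and -0.019 for Kcnab3. The median of all genes was -1.35 relative to neuron markers and -1.67 relative to hair cell markers for apex minus base. The part of the marker level in these signs was not tested.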
